A study of Sus scrofa domesticus with 12 samples.

Results

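The genes described are 8 that encode parts of the dystrophin-associated protein complex or proteins that seal the muscle fibre membrane: DMD, SGCA, SGCB, SGCD, DAG1, DTNA, DYSF and CAV3. They were chosen by name, and 6 of the 8 have rows among the 11506 genes of the table. DMD, SGCA, SGCB, SGCD and CAV3 are listed under their symbols, DYSF is listed under a LOC name and was matched through its NCBI gene identifier, and DAG1 and DTNA were not analysed here. Values are in TPM, a share of all transcripts in a library that is already divided by transcript length, so that levels of different genes can be set side by side.

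The data are whole-tissue RNA-seq of the peroneous tertius (PT) muscle, a dorsiflexor of the lower hindlimb, from female Yorkshire Cross pigs, in 12 libraries from 12 limbs of 11 pigs. In volumetric muscle loss (VML), a piece of muscle too large to regrow was cut from the middle of the PT muscle. In 2 sham-operated limbs (Sham in the labels; pigs 025 and 026) the muscle was exposed and no tissue was taken. All other limbs were injured: 2 were left without an implant (No repair; pigs 017 and 023), 2 received a hyaluronic acid hydrogel used as a biomaterial negative control (HA, here Hya-repaired; pigs 016 and 017), and 6 received a decellularised extracellular matrix (ECM-SIS, here ECM-repaired; pigs 013, 014, 018, 021, 022 and 024). The labels give all 6 as ECM-SIS, whereas the paper's RNA-seq sample sizes count small intestinal submucosa and urinary bladder matrix limbs separately. By those sample sizes the 6 limbs hold both sources. The labels do not tell the 2 sources apart, so the limbs are held as a single group. All samples of muscle were taken 12 weeks after surgery from young adult animals. From pig 017 both limbs were used, the left without repair and the right with Hya, and the number of limbs in the smaller groups limits every comparison below.

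Dystrophin joins the actin cytoskeleton of the muscle fibre to a complex in the plasma membrane, the sarcolemma, in which dystroglycan binds laminin outside the cell and the sarcoglycans steady the link. Caveolin-3 forms the caveolae of muscle fibres, and dysferlin, a calcium-binding membrane protein, takes part in the fusion of vesicles that patch a torn sarcolemma. Inherited loss of dystrophin, of a sarcoglycan, of dysferlin or of caveolin-3 gives muscular dystrophy or a related muscle disease.

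All 6 genes were lower in VML-injured than in sham-operated muscle, and in each of them all 10 injured limbs lay below both sham-operated limbs. Of the 8765 genes tested, 8.52% showed that separation and 49.8% the opposite one. Mean TPM of the injured limbs, as a share of the sham mean, was 16.4% for DMD, 30.4% for SGCB, 32.2% for SGCA, 32.7% for DYSF, 42.0% for SGCD and 42.7% for CAV3. In the same limbs the genes of the muscle fibre itself fell and those of fibroblasts and macrophages rose, with values given below. In bulk tissue, fewer muscle fibres and less RNA of these genes per fibre cannot be told apart.

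DMD, which encodes dystrophin, was the lowest of the 6 genes in every library. Its level was 11.6 and 9.53 TPM in the sham-operated limbs of pigs 025 and 026. It was 1.66 and 2.97 TPM in the non-repaired limbs of pigs 017 and 023, 0.695 and 1.97 TPM in the Hya-repaired limbs of pigs 016 and 017, and from 0.354 through a median of 1.61 to 4.27 TPM in the 6 ECM-repaired limbs. The injured groups overlapped one another and none reached the sham level. The highest injured limb, ECM-repaired pig 024, held 12.1 times the DMD of the lowest, ECM-repaired pig 018, while the sham-operated limbs differed by 1.21 times.

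The sarcoglycans are single-pass membrane proteins that sit beside dystroglycan as a unit. SGCA, the alpha subunit, whose expression is largely limited to striated muscle, was at 91.5 and 142.7 TPM in the sham-operated limbs. It was 41.4 and 39.5 TPM without repair, 14.5 and 88.4 TPM in the Hya-repaired limbs of pigs 016 and 017, and 12.1 to 49.2 TPM with a median of 33.3 in the ECM-repaired limbs. The Hya-repaired limb of pig 017 lay just under sham pig 025, and the other limb of the same animal, left without repair, was close to the middle of the injured range. SGCB, the beta subunit, was at 133.0 and 127.3 TPM in sham-operated limbs, 39.0 and 67.5 TPM without repair, 23.3 and 37.2 TPM with Hya, and 16.6 to 81.9 TPM with a median of 32.7 in ECM-repaired limbs. For SGCB the injured limb nearest to sham was ECM-repaired pig 024, at 81.9 TPM.

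SGCD, the delta subunit, varied least. It was at 77.2 and 61.6 TPM in sham-operated limbs, 27.5 and 34.7 TPM without repair, 22.9 and 35.0 TPM with Hya, and 21.5 to 39.7 TPM with a median of 26.4 in ECM-repaired limbs. The 10 injured limbs spanned 1.85-fold for SGCD against 7.31-fold for SGCA and 4.95-fold for SGCB. The subunits therefore did not keep a fixed proportion. SGCA stood at 1.18 and 2.32 times SGCD in the sham-operated limbs and at 0.563 to 2.52 times SGCD in the injured limbs, with ECM-repaired pig 014 lowest and Hya-repaired pig 017 highest. SGCB stood at 1.72 and 2.07 times SGCD in sham muscle and at 0.681 to 2.06 times in injured muscle. These ratios were formed after the values were seen and were not tested.

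DYSF, which encodes dysferlin, was at 12.01 and 14.8 TPM in sham-operated limbs. It was 4.27 and 7.68 TPM without repair, 2.88 and 4.26 TPM with Hya, and 0.976 to 10.1 TPM with a median of 3.66 in ECM-repaired limbs. The low end was ECM-repaired pig 018 and the high end ECM-repaired pig 024, a 10.3-fold span that came close to the sham level at its top. CAV3, which encodes caveolin-3, was at 87.5 and 100.2 TPM in sham-operated limbs, 27.0 and 39.1 TPM without repair, 16.2 and 62.1 TPM with Hya, and 21.2 to 74.9 TPM with a median of 34.6 in ECM-repaired limbs. ECM-repaired pig 013 was the highest injured limb for CAV3 and ranked between 3 and 7 of 10 for the other 5 genes.

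**Figure D1:**
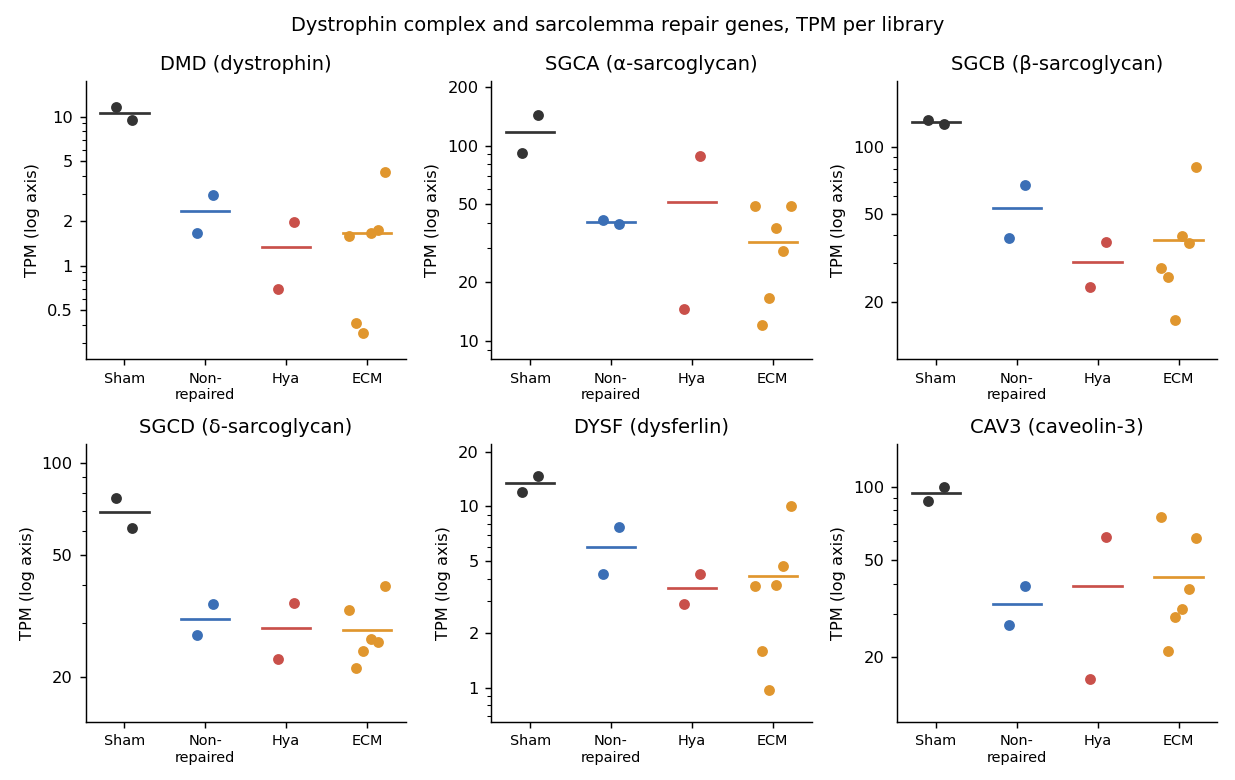
TPM of the 6 genes in each library on log axes, with the 4 conditions along the x axis, 1 point per limb and a bar at the arithmetic mean of the group. Both sham-operated points lie above all 10 injured points in every panel, and SGCD has the narrowest injured range (1.85-fold) and DMD the widest (12.1-fold).

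The order of the genes was partly shared by sham-operated and injured muscle. DMD was the lowest and DYSF the next lowest in all 12 libraries. The first 4 places, held by SGCA, SGCB, SGCD and CAV3, changed from limb to limb: SGCB was highest in 6 libraries, SGCA in 3 and CAV3 in 3, and the gaps between these neighbours were within the spread among limbs of a group. Summed over the 6 genes, the level was 412.7 and 456.2 TPM in sham-operated limbs and 80.5 to 246.9 TPM in injured limbs. ECM-repaired pig 024 had the largest sum among injured limbs and Hya-repaired pig 016 the smallest.

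The comparison of VML-injured with sham-operated muscle was fitted with limma on log2(TPM + 0.5) across all 8765 genes, with the injured value taken as the equal-weight mean of the 3 injured groups and p-values adjusted by the Benjamini-Hochberg method over all genes. All 6 genes were lower at an adjusted p under 0.05, where 7.67% of all genes were lower and 49.3% higher. The fitted fall was also at least 2-fold for all 6, as it was for 5.74% of all genes. DMD fell by 2.43 on the log2 scale (SE 0.55, limma adjusted p = 0.00262), SGCB by 1.80 (SE 0.44, limma adjusted p = 0.00443) and SGCD by 1.23 (SE 0.26, limma adjusted p = 0.00146). SGCA fell by 1.71 (SE 0.63, limma adjusted p = 0.0353), DYSF by 1.60 (SE 0.56, limma adjusted p = 0.0279) and CAV3 by 1.44 (SE 0.49, limma adjusted p = 0.0250). On this scale the fall of DMD is understated more than that of the other genes, since its injured level is close to the added 0.5 TPM. Leaving out 1 library, the log2 differences ran from -2.60 to -2.25 for DMD, -2.14 to -1.28 for SGCA and -1.93 to -1.67 for SGCB. They ran from -1.40 to -1.07 for SGCD, -1.74 to -1.45 for DYSF and -1.76 to -1.12 for CAV3. Fewer of the 6 were called when sham pig 025, sham pig 026 or non-repaired pig 017 was left out. The share of all genes called in those fits was not taken, so this loss is not read as particular to these genes. DMD and SGCD kept their call in all 20 alternative settings tried, against 19 for SGCB, 17 for CAV3, 16 for SGCA and 15 for DYSF.

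TPM are shares, and in these libraries the median of all genes was itself 0.73 higher in injured muscle on the log2 scale. Changes measured against the bulk of the transcriptome were therefore larger. After rescaling by trimmed means, which moved the all-gene median to 0.03, the 6 genes were lower by between 2.01 (SGCD) and 3.15 (DMD) on the log2 scale, with limma adjusted p from 0.000131 to 0.00567, and 27.1% of all genes were called lower and 29.7% higher.

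Each injured condition was then set against the same 2 sham-operated limbs, so that the comparisons share their controls. In ECM-repaired muscle all 6 genes were lower (9.98% of all genes lower and 47.9% higher), by 2.59 for DMD, 1.98 for SGCA, 1.93 for SGCB, 1.87 for DYSF, 1.29 for SGCD and 1.26 for CAV3 on the log2 scale, with limma adjusted p from 0.00131 (SGCD) to 0.0481 (CAV3). Fewer of the 6 were called when sham pig 025 or sham pig 026 was left out. The call of CAV3 was the least firm of the 6, and was lost without the filter on low values and when any of ECM-repaired pigs 014, 018, 021 and 022 or either non-repaired limb was left out.

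In Hya-repaired muscle 3 of 6 were lower against 3.74% of all genes, and none was higher against 33.8% of all genes: DMD by 2.68 (limma adjusted p = 0.00955), SGCB by 2.12 (limma adjusted p = 0.0105) and SGCD by 1.27 (limma adjusted p = 0.00883). The others, SGCA, DYSF and CAV3, had log2 differences of -1.65, -1.78 and -1.54 with limma adjusted p of 0.116, 0.0634 and 0.0669. Fewer of the 6 were called without Hya-repaired pig 016 or sham pig 025, and more without Hya-repaired pig 017. With only 2 limbs in this group, SGCA was at -0.37 without pig 016 and -2.94 without pig 017 (limma adjusted p = 0.806 and 0.00713), and CAV3 at -0.59 and -2.49 (limma adjusted p = 0.602 and 0.00667).

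In non-repaired muscle 2 of 6 were lower against 1.19% of all genes, and none was higher against 45.1% of all genes: DMD by 2.01 (limma adjusted p = 0.0308) and SGCD by 1.15 (limma adjusted p = 0.0116). SGCA, SGCB, DYSF and CAV3 had log2 differences of -1.49, -1.33, -1.15 and -1.51, with limma adjusted p from 0.0617 to 0.191. Fewer of the 6 were called when non-repaired pig 017 or 023, or sham pig 025 or 026, was left out. After rescaling by trimmed means all 6 genes were lower in the Hya-repaired and in the non-repaired comparison, against 19.2% and 19.9% of all genes, and none was higher, against 23.3% and 23.1%. In ECM-repaired muscle they were all lower on that scale too, where 28.6% of all genes were lower and 30.2% higher.

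No difference among the injured conditions was called for any of the 6 genes, nor for any other gene. In ECM-repaired against all injured limbs without ECM, the log2 differences ran from -0.41 for SGCA to 0.27 for CAV3 with a limma adjusted p of 1.00 for each of the 6 genes, and 113 of 8765 genes but none of the 6 had an unadjusted limma p under 0.05. The 95% interval of that difference was -0.53 to 0.37 for SGCD, -0.98 to 0.58 for SGCB, -1.21 to 0.72 for DMD, -1.39 to 0.59 for DYSF, -1.53 to 0.70 for SGCA and -0.60 to 1.13 for CAV3. A doubling or a halving with ECM, which is 1 on this scale, thus lay outside the interval for SGCD and only just outside it for SGCB. It lay inside on at least 1 side for the other genes. For SGCB the interval was -1.58 to 0.39 against non-repaired limbs alone and -0.79 to 1.18 against Hya-repaired limbs alone. Those hold a halving and a doubling. In the comparisons of ECM-repaired with non-repaired, ECM-repaired with Hya-repaired and Hya-repaired with non-repaired muscle, the 6 genes lay between -0.72 and 0.25, between -0.33 and 0.28, and between -0.79 and -0.03 on the log2 scale, and 71, 205 and 194 genes had an unadjusted limma p under 0.05, again with none of the 6 among them.

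Transcripts of the muscle fibre itself were lower in the same limbs. For the counts below, 7.67% of all genes were lower and 49.3% higher as deposited, and 27.1% and 29.7% after rescaling. The summed level of 23 sarcomere and fibre genes, which encode the contractile proteins and enzymes of striated muscle, was 215375 to 234196 TPM in sham-operated limbs and 16473 to 124051 TPM in injured limbs. As deposited 14 of the 23 fell and none rose (22 and none after rescaling), among them TNNI2 (by 2.16, limma adjusted p = 0.00491) and TPM1 (by 2.15, limma adjusted p = 0.00757), which encode fast troponin I and a tropomyosin. Of 15 further genes of the Z-disc and M-line, 11 fell (14 after rescaling), among them DES, encoding desmin (by 2.08, limma adjusted p = 0.0111), and PDLIM7 (by 1.22, limma adjusted p = 0.00414). Fibroblast markers summed to 1122 to 1571 TPM in sham-operated limbs and 37748 to 98018 TPM in injured limbs with 8 of 8 higher, POSTN by 7.33 and COL1A2 by 6.08 on the log2 scale. Macrophage markers summed to 32.8 to 53.0 TPM and 640.3 to 1665 TPM with 8 of 8 higher, C1QC by 4.67 and C1QA by 4.84. No fibroblast or macrophage gene of these lists was at 0 in every library, and their part in the fall of the 6 genes was not tested.

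Taken against the mean of the 23 fibre genes in the same library, none of the 6 genes was called lower in injured muscle. That mean, on the log2(TPM + 0.5) scale, was 12.6 in both sham-operated limbs and ran from 8.32 in ECM-repaired pig 014 to 11.8 in Hya-repaired pig 017 (two-sided exact permutation test over 66 splits, p = 0.0455). Relative to it the differences of injured from sham-operated muscle were -0.29 for DMD, 0.34 for SGCB, 0.43 for SGCA, 0.54 for DYSF, 0.70 for CAV3 and 0.91 for SGCD. None was called, where 0.0228% of all genes were called lower and 78.8% higher on this scale. Each of these limma differences has an SE of 0.94 to 1.00, although the SD of the ratio among injured limbs ran from 0.34 for SGCA to 0.90 for SGCD. Subtracting the same reference ties the genes together, and the SE follows a spread pooled over genes. The 95% intervals, such as -2.12 to 1.55 for DMD and -1.04 to 2.85 for SGCD, hold a fall and a rise of more than 2-fold. They do not measure the spread of each ratio between limbs, so no conclusion on a single gene is drawn from them. Two-sided exact permutation tests of each ratio over the 66 splits gave p of 0.697 for DMD, 0.455 for SGCB, 0.318 for DYSF, 0.106 for SGCD and 0.0909 for SGCA and for CAV3, where the smallest p possible is 0.0152. The sham-operated and injured ratios overlapped for 5 genes, and for CAV3 all 10 injured limbs (-5.87 to -3.88 on the log2 scale) lay above both sham-operated limbs (-6.12 and -5.90), as they did for 88.5% of all genes. Against the Z-disc and M-line list in place of the fibre genes, the differences ran from -0.58 for DMD to 0.61 for SGCD, with none called.

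**Figure D2:**
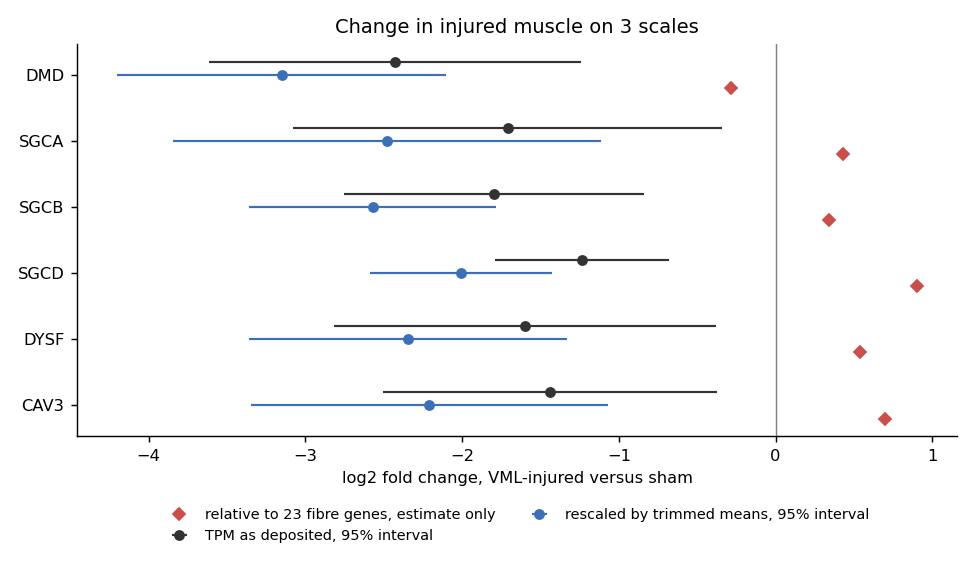
Log2 fold change of VML-injured versus sham-operated muscle for the 6 genes on 3 scales, as deposited (black, 95% limma interval), rescaled by trimmed means (blue, 95% limma interval) and relative to the 23 fibre genes (red, estimate only). The black and blue estimates are all below 0, from -1.23 to -3.15, whereas the red ones run from -0.29 for DMD to 0.91 for SGCD.

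The 6 genes changed by different amounts among the 10 injured limbs when set beside the fibre genes. The SD of a ratio also grows where a gene keeps the order of the fibre genes but changes less than they do. SGCD was lowest in ECM-repaired pig 014, Hya-repaired pig 016 and ECM-repaired pig 018, which also had the lowest fibre means (8.32, 8.89 and 9.01). For SGCA the SD of the log2 level among these limbs was 0.89, and that of its ratio to the fibre genes was 0.34 (0.24 for the ratio to the Z-disc and M-line list). For DMD the SD went from 0.79 to 0.62 (0.47 with the Z-disc and M-line list) and for DYSF from 0.83 to 0.75 (0.63). For SGCD it went the other way with both lists, from 0.29 to 0.90 (0.67). For the remaining genes the lists differed, with SGCB going from 0.68 to 0.84 (0.68) and CAV3 from 0.70 to 0.74 (0.49). SGCD thus changed little between an ECM-repaired limb with few fibre transcripts (pig 014, 21.5 TPM) and a Hya-repaired limb with many (pig 017, 35.0 TPM), while SGCA went from 12.1 to 88.4 TPM between the same limbs. These spreads are descriptions over limbs and were not tested against one another.

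**Figure D3:**
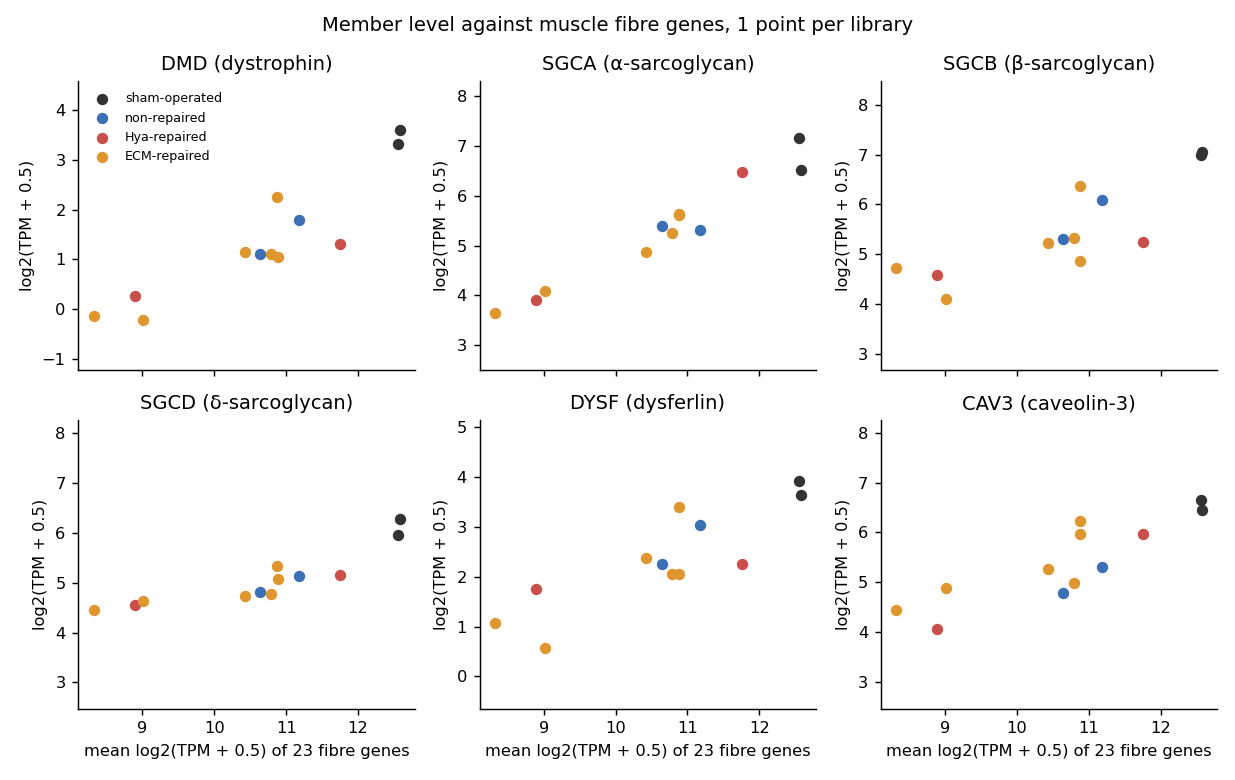
Level of each gene, as log2(TPM + 0.5), against the mean of 23 fibre genes on the same scale in each of the 12 libraries, coloured by condition, with y axes of equal length. SGCA climbs along with the fibre genes through the injured limbs, whereas SGCD lies nearly flat among them (SD 0.29) and is higher in the sham-operated limbs at the right.

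The partners of dystrophin and the sarcoglycans were called in both directions. Of 16 genes listed as further complex members or linked filament proteins, 10 have rows and 9 were tested. Of these 3 were lower and 2 higher, against 7.67% and 49.3% of all genes. After rescaling by trimmed means these counts were 5 and 2, against 27.1% and 29.7% of all genes. Syntrophins are adaptors that bind dystrophin and anchor signalling proteins to it. SNTB1, encoding beta-1-syntrophin, was at 15.2 and 17.4 TPM in sham-operated limbs and 0.803 to 5.91 TPM in injured limbs. All injured limbs lay below sham, as for 8.52% of all genes, and the fall was 2.28 (SE 0.53, limma adjusted p = 0.00309). SNTB2, encoding beta-2-syntrophin, went the other way, from 0.993 and 1.14 TPM to 2.21 to 5.51 TPM (log2 difference 1.39, SE 0.33, limma adjusted p = 0.00329), and remained higher after rescaling (0.81, limma adjusted p = 0.0396).

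DTNB, encoding beta-dystrobrevin, a homologue of the DTNA product found mostly outside muscle fibres, was at 0.184 and 0.804 TPM in sham-operated and at 1.83 to 3.63 TPM in injured limbs (log2 difference 1.57, SE 0.32, limma adjusted p = 0.00144). SNTB2 and DTNB were not at 1 TPM in both sham-operated limbs. Both passed the filter only through injured groups, where they are high, and their sham levels are near the added 0.5 TPM. Their calls as higher are therefore not taken as support for a rise. SYNM and SYNC, which encode the filament proteins synemin and syncoilin, were the other two that fell. SSPN, encoding sarcospan, a membrane protein bound to the sarcoglycans, had a log2 difference of -1.07 (limma adjusted p = 0.0992). Its 10 injured limbs lay between 7.25 and 50.7 TPM around sham levels of 33.5 and 27.4, and the 1 injured limb above sham was ECM-repaired pig 024. After rescaling SSPN was lower by 1.83 (limma adjusted p = 0.0038). SGCZ was listed at no more than 0.067 TPM in any library and was not tested. UTRN, NOS1, LAMA2, ITGA7, CAVIN1, CAVIN4 and ANO5 were not analysed here.

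For DYSF, CAV3 and SGCA the table also holds a homologue that is expressed in many tissues beside striated muscle. For each pair the log2 ratio within a library, with 0.5 TPM added to each gene, was compared by a two-sided exact permutation test. It ran over the 66 splits into 2 and 10 limbs, with p adjusted over the 3 ratios. The log2 differences are on that scale, whereas the ratios printed are of TPM with nothing added. DYSF, CAV3 and SGCA were already below both sham-operated limbs in all 10 injured limbs, so most genes that did not fall would give a higher ratio. The share of all genes with a higher ratio to the same member was not taken. Against the fibre genes, 88.5% of all genes were higher in all injured limbs. These tests therefore do not single out the homologues. The ratio of MYOF, which encodes the dysferlin homologue myoferlin, to DYSF was 0.155 and 0.238 in sham-operated limbs and 2.80 to 20.9 in injured limbs, higher in 10 of 10 (log2 difference 4.71, exact p = 0.0152, adjusted p = 0.0227). Dysferlin transcripts thus exceeded those of myoferlin in both sham-operated limbs and were exceeded by them in every injured limb. MYOF itself was at 1.86 and 3.52 TPM in sham-operated muscle and 11.9 to 39.9 TPM in injured muscle (log2 difference 2.98, SE 0.39, limma adjusted p = 5.46e-05), and 2.30 higher after rescaling.

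The ratio of CAV1, encoding the caveolin of endothelium, fat and fibroblasts, to CAV3 was 0.915 and 0.883 in sham-operated limbs and 1.51 to 11.7 in injured limbs, again higher in 10 of 10 (log2 difference 2.26, exact p = 0.0152, adjusted p = 0.0227). The fall of CAV3 made up the larger part of this shift, since CAV1 rose by 0.95 (limma adjusted p = 0.0261) as deposited and stood 0.17 higher with no call after rescaling (limma adjusted p = 0.555). The ratio of SGCE, encoding the epsilon-sarcoglycan found in many tissues, to SGCA was 0.0346 and 0.0268 in sham-operated limbs and 0.00568 to 3.88 in injured limbs, higher in 9 of 10 (log2 difference 4.49, exact p = 0.0303, adjusted p = 0.0303). SGCE rose from 3.17 and 3.82 TPM to 19.1 to 60.5 TPM in 9 injured limbs, but was 0.0943 TPM in ECM-repaired pig 018, and over all limbs it was not called (log2 difference 2.88, SE 1.40, limma adjusted p = 0.0989). Without that library SGCE was 3.22 higher (limma adjusted p = 2.02e-05). The 0.5 TPM added for the ratio test exceeds SGCE in ECM-repaired pig 018, so its tested ratio was higher than the 0.00568 shown. With either sham-operated limb left out, none of the 3 ratios can reach an adjusted p of 0.05.

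**Figure D4:**
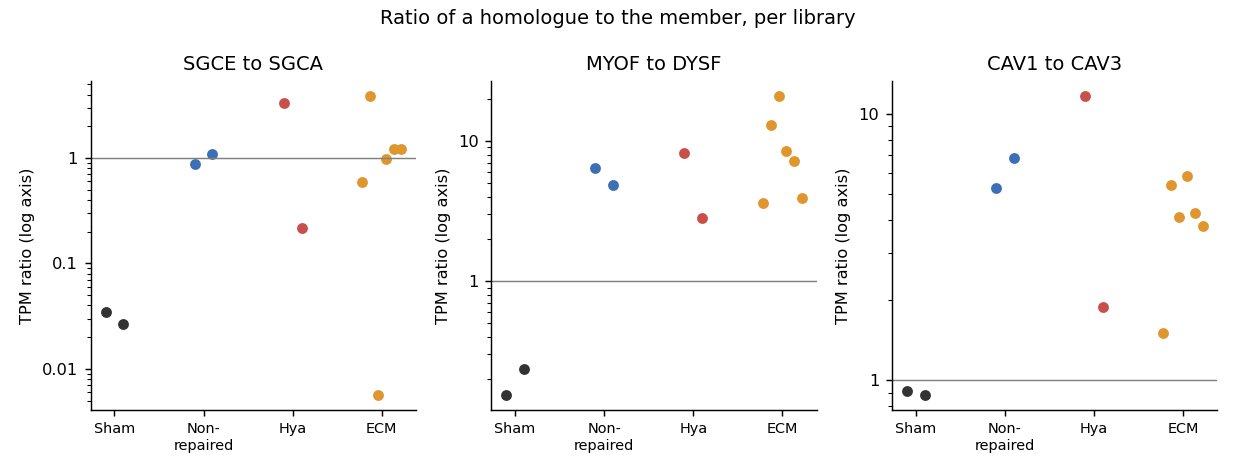
TPM of SGCE over SGCA, of MYOF over DYSF and of CAV1 over CAV3 in each library on log axes, by condition, with a grey line at a ratio of 1. The sham-operated limbs lie below 1 in all 3 panels (0.0268 to 0.915), and the injured limbs lie above them except ECM-repaired pig 018 for SGCE over SGCA (0.00568).

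Genes of membrane repair were mostly higher in injured muscle. Of 21 tested, 17 were higher and 1 lower, against 49.3% and 7.67% of all genes. The list median was 1.45 on the log2 scale against 0.73 for all genes. After rescaling by trimmed means 11 were higher and 4 lower, against 29.7% and 27.1% of all genes. The annexins, calcium-dependent proteins that gather at membrane wounds and are made by many cell types, were among those that rose. ANXA1 went from 26.1 and 30.4 TPM to 302.3 to 767.0 TPM (log2 difference 4.21, limma adjusted p = 1.06e-06) and ANXA4 from 8.38 and 10.1 TPM to 57.7 to 164.8 TPM (log2 difference 3.66, limma adjusted p = 2.08e-06). The 1 that fell was CAPN3, encoding the calpain protease of skeletal muscle, from 328.6 and 348.3 TPM to 14.7 to 153.9 TPM (a fall of 2.23, SE 0.75, limma adjusted p = 0.0241). TRIM72, encoding the muscle repair protein MG53, stood at 120.1 and 126.8 TPM in sham-operated limbs and at 5.14 to 67.4 TPM in injured limbs. All injured limbs lay below sham, as for 8.52% of all genes, and the log2 difference of -2.01 was not called (limma adjusted p = 0.0568). After rescaling TRIM72 was lower by 2.78 (limma adjusted p = 0.0086).

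Among 8 further genes listed for caveolae and membrane bending, 4 were higher and 2 lower as deposited, against 49.3% and 7.67% of all genes. After rescaling 2 were higher and 3 lower, against 29.7% and 27.1% of all genes. EHD4 and EHD2, which encode ATPases that bind membrane, rose by 2.58 (limma adjusted p = 5.26e-05) and 1.99 (limma adjusted p = 0.000509). BIN1 and PACSIN3, which encode membrane-bending proteins of muscle, fell by 1.47 (limma adjusted p = 0.0227) and 1.42 (limma adjusted p = 0.0176). CAV2, whose product pairs with caveolin-1, had a log2 difference of 0.02 as deposited and of -0.75 after rescaling by trimmed means (limma adjusted p = 0.975 and 0.0556), and was called lower after rescaling by medians of ratios (-0.79, limma adjusted p = 0.0437).

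The enzymes that attach the laminin-binding sugar to dystroglycan were not called lower on the deposited scale. Of 11 tested, 6 were higher and none lower as deposited, against 49.3% and 7.67% of all genes. The list median and that of all genes were both 0.73. After rescaling 2 were higher and 2 lower, against 29.7% and 27.1% of all genes. DPM2 and GMPPB, which supply mannose for the sugar, rose by 2.52 (limma adjusted p = 2.85e-05) and 2.23 (limma adjusted p = 0.000284). POMGNT1, an acetylglucosamine transferase, had a log2 difference of 0.07 as deposited and was lower by 0.69 after rescaling (limma adjusted p = 0.00872). Of 10 genes in a list of laminins, integrin-related and other matrix genes, 8 were higher and none lower (7 and 1 after rescaling). The 1 that was lower was ITGB1BP2, which encodes melusin, a cytosolic muscle protein that binds integrin (-1.56 as deposited and -2.33 rescaled, limma adjusted p = 0.0523 and 0.00972). BGN, encoding biglycan, went from 27.3 and 71.6 TPM to 1350 to 3731 TPM (log2 difference 5.71, limma adjusted p = 9.65e-07), and COL6A3, a collagen VI chain, rose by 4.32 (limma adjusted p = 5.46e-06).

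**Figure D5:**
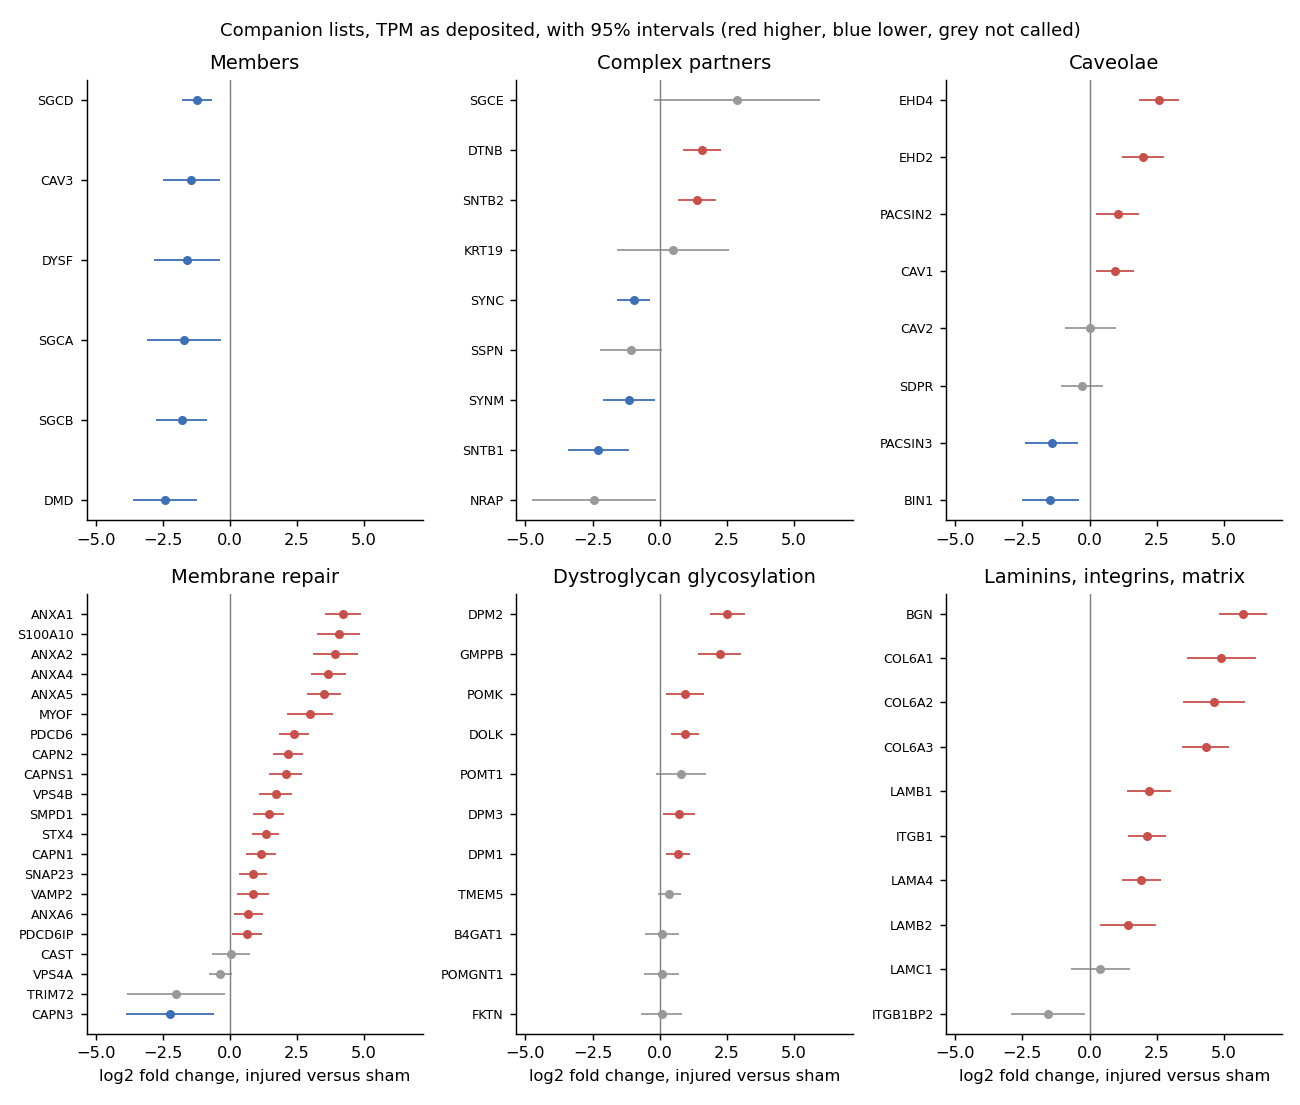
Log2 fold change of VML-injured versus sham-operated muscle with 95% limma intervals for the 6 genes and 5 companion lists, on TPM as deposited, with red for genes called higher, blue for genes called lower and grey for genes not called. The 6 genes are all blue, and 17 of 21 membrane repair genes are red. The complex partners and the caveolae list, which also holds membrane-bending genes, show both colours (3 lower and 2 higher, and 2 lower and 4 higher). Over all genes 7.67% were called lower and 49.3% higher.

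Fewer markers of other cell types were called, and several of these calls changed with the scale. Over all genes 49.3% were higher and 7.67% lower as deposited, and 29.7% and 27.1% after rescaling. Of 8 endothelial markers 1 was higher as deposited (EGFL7, 1.14, limma adjusted p = 0.021), with a list median of 0.27 against 0.73 over all genes. After rescaling none was higher and KDR was lower (-0.07 as deposited, -0.83 rescaled, limma adjusted p = 0.037), and without sham pig 025 EGFL7 was at 0.58 (limma adjusted p = 0.353). The endothelial genes CDH5, VWF and TEK had log2 differences of -0.17, -0.19 and -0.19 as deposited, while PECAM1, TIE1 and CLDN5 had 0.63, 0.86 and 0.61, none of them called. The smooth muscle list, of contractile and pericyte genes, likewise depended on the scale. Of its 4 genes 2 were higher as deposited, TAGLN by 2.42 and ACTA2 by 1.26, and after rescaling TAGLN was higher and CNN1 lower. ACTA2 was at 0.48 after rescaling (limma adjusted p = 0.284) and at 0.60 without sham pig 025 (limma adjusted p = 0.324). Of 3 Schwann cell markers S100B was higher by 1.81 on the log2 scale, and SOX10 and MBP, at 1.14 and -0.62, were not called. None of 4 adipocyte markers was called on either scale, and their median was 0.02, with FABP4 at 0.67, CIDEC at 0.18, PLIN1 at -0.14 and ADIPOQ at -0.21. Of 3 listed satellite cell markers, which are genes of the muscle stem cell, 2 were tested and PAX7 was not analysed here. CDH15 was lower by 1.70 on the log2 scale (limma adjusted p = 0.0295), and this call was lost without either sham-operated limb, Hya-repaired pig 016 or non-repaired pig 017 (limma adjusted p = 0.0520 to 0.140). MYF5 was low, at 0.349 to 2.57 TPM in the ECM-repaired limbs, so the added 0.5 TPM weighs on its differences. It had a log2 difference of -0.73 (limma adjusted p = 0.148), with a range of -1.19 to -0.26 on leaving out 1 library. Without ECM-repaired pig 024 it was called lower (limma adjusted p = 0.0406). After rescaling both markers were lower (CDH15 -2.44 and MYF5 -1.33, limma adjusted p = 0.00449 and 0.00622).

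For each of the 6 genes, the 3 genes with the closest pattern over the 12 libraries were named by Pearson correlation of log2(TPM + 0.5), as a description, since all libraries share the gap between sham-operated and injured muscle and genes within a library are not independent. DMD was followed most closely by PPP3CB, KPNA1 and DCAF6 (r from 0.984 to 0.989) and SGCB by ADGRF5, PPP3CB and MAP3K20 (0.981 to 0.983). SGCA was followed by MURF3, MAMSTR and PPM1J (0.986 to 0.988) and DYSF by NRD1, SVIL and DCAF8 (0.977 to 0.980). For SGCD they were LOC100737157, ACVR2B and YBX3 (0.965 to 0.973), and for CAV3 they were DUSP13, HSPB8 and LOC100738744 (0.960 to 0.962). PPP3CB was the only gene named for more than 1 member.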

How the data were processed

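Total RNA from samples of the PT muscle was sequenced with paired-end reads. The library names carry different PT numbers, which the labels do not explain, and their relation to the spread among limbs was not tested. The authors quantified transcripts with kallisto against a pig genome annotation from UCSC and deposited 1 table of TPM. The authors' gene calls used DESeq2 and are not used here. Counts were not analysed here, so depth per library is unknown and no counting interval was given. Between 71.5% and 82.6% of a library's TPM fell on named genes. 21 names turned into dates were left out, 239 genes were at 0 throughout, and 618 of 1833 LOC names were given symbols through NCBI gene identifiers (RefSeq, Sscrofa 11.1). No coordinates or sequences were taken from that build, which is not the one the values rest on.

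Groups came from the labels. No 2 libraries held identical values. log2(TPM + 0.5) of 8765 genes that reached 1 TPM in every library of some condition was fitted in limma 3.58.1 (R 4.3.3) over all 12 libraries with trend and robust estimation, and checked on simulated data with 200 changed genes. Ratios used exact permutation over libraries in numpy 2.4.6, on log2 ratios with 0.5 TPM added to each gene. p-values measure the spread between these limbs, which come from separate pigs except those of pig 017. The limma fits relative to the fibre genes or to the Z-disc and M-line list are an exception, since their SE follows a spread pooled over genes. The alternatives were 2 rescalings, pseudocounts of 0.1 and 1, no filter and a filter of 5 TPM, fits without trend and robust estimation or with only the libraries compared, and leaving out each library or both libraries of pig 017. Named genes were the 8 members, homologues and partners set by name, the 2 genes with the smallest p of each companion list and the 3 closest in pattern to each member, and SYNM, SYNC, BIN1 and PACSIN3 were added after their values were seen. Some partner genes are not reported here. The members and lists were chosen with earlier results of these data known.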

Additional observations from a re-analysis of the deposited data

Results flagged for a closer look

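In the 6 ECM-repaired limbs, 7 of 46 named genes and ratios had 1 limb set apart by Dixon's 95% criterion. Its gap to the nearest neighbour was a larger share of the group's range than the criterion allows. The criterion's rate of about 1 in 20 holds for independent, normally distributed values. These are untransformed TPM and ratios from the same 6 limbs, so the 7 flags cannot be set against that rate. ECM-repaired pig 024 was the limb set apart for 6 of the 7. It was highest for DMD (4.27 TPM against 0.354 to 1.73 in the other five), SGCB (81.9 against 16.6 to 39.5), SSPN (50.7 against 7.44 to 19.0), CAV2 (92.5 against 26.04 to 44.1), CIDEC (5.58 against 1.22 to 2.18) and MYF5 (2.57 against 0.349 to 1.18). The same library had the highest median TPM over the tested genes of all 12, 18.4 against 6.21 to 15.7 in the others. After rescaling by trimmed means DMD was 2.72 and SGCB 52.2 in pig 024, still the highest of the 6, and neither gap passed the criterion any longer (0.427 and 0.50 of the range, against a critical value of 0.625). On that scale ECM-repaired pig 013 passed it for SGCD (0.809) and CAV3 (0.723) instead.

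The seventh was the ratio of SGCE to SGCA, at 3.88 in ECM-repaired pig 014 against 0.00568 to 1.23 in the others. SGCA was lowest in that limb (12.1 TPM).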

How the results depend on the processing

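No paired analysis was possible because only pig 017 gave limbs to 2 conditions, so that no pair of conditions shares 2 animals, and replicate numbers follow accession order and pair nothing.

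Leaving out 1 library at a time, the log2 differences of all 6 genes from sham stayed below 0 in every comparison. The share of all genes called in those fits was not taken, so lost calls are not read as particular to the 6 genes. The number of the 6 genes called lower changed with the library left out in each comparison with sham. Other settings took VML-injured to 5 (without both libraries of pig 017) and ECM-repaired to 5 (with no filter, and without trend and robust estimation). Non-repaired went from 2 to 6 under both rescalings and with only the libraries compared, to 1 at a pseudocount of 0.1 and to 0 without both libraries of pig 017. Hya-repaired went from 3 to 6 under both rescalings and to 5 without both libraries of pig 017. No gene of the 6 was called higher than sham or different among injured conditions in any setting run. The log2 ratios ranged from 4.23 to 4.98 for SGCE to SGCA, 4.47 to 4.95 for MYOF to DYSF and 2.11 to 2.43 for CAV1 to CAV3, and without a sham-operated limb only 11 splits remain, so that the adjusted exact permutation p was 0.0909 to 0.182.

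Several differences that were not called as deposited changed sign, and of these CAV2 (medians of ratios) and POMGNT1 (both rescalings) were then called lower. By trimmed means and medians of ratios CAV2 went to -0.75 and -0.79, POMGNT1 to -0.69 and -0.73, FABP4 to -0.10 and -0.14 and CIDEC to -0.47 and -0.50. Without both libraries of pig 017, CIDEC was -0.19, SGCA in ECM-repaired against injured limbs without ECM 0.24, and DMD relative to fibre genes 0.042. Leaving out 1 library, the ranges that crossed 0 were -0.41 to 0.45 for CAV2, -0.013 to 0.15 for POMGNT1, -0.41 to 0.78 for CIDEC, -0.59 to 0.017 for DMD and -0.025 to 0.71 for SGCB relative to fibre genes. In ECM-repaired against injured limbs without ECM they were -0.53 to 0.012 for DMD, -1.06 to 0.23 for SGCA, -0.23 to 0.072 for SGCD and -0.21 to 0.74 for CAV3. The cause of these changes was not tested. With 2 sham-operated limbs and unknown depth, low levels such as those of DMD carry an error that cannot be stated per library.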
